A study of Mus musculus with 2 samples.

Results

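The 7 genes described here are Ifi27, Ifi27l2a, Ifitm1, Ifitm2, Ifitm3, Ifitm6 and Bst2. They encode membrane proteins or belong to families of membrane proteins that interferon is known to induce. They were chosen by their counts between these libraries, in which Ifi27 ran against the other interferon-induced membrane genes. The difference in monocytes and macrophages is therefore given as a description. All 7 were present in both deposited tables, out of 13289 genes listed in both. There were 2 libraries, 1 per genotype, of live (Zombie aqua-) CD45+ CD11b+ Ly6G- cells sorted from the tibialis anterior muscle of mice on day 4 after injection of cardiotoxin, a snake venom toxin that destroys muscle fibres. The Gata3KO library came from C57BL/6:Cx3cr1CRExGata3fl/fl mice, in which Cre recombinase expressed from Cx3cr1 is designed to delete floxed Gata3 in monocytes, macrophages and any other cell that uses Cx3cr1, and the Wt library from C57BL/6 mice. Both groups received 50 µl of 10 µM Naja pallida cardiotoxin, and the labels name neither the age nor the number of the animals behind each library. The comparison is between cells of injured muscle from mice of these genotypes, which differ in the floxed gene of the transcription factor Gata3 and in the Cre.

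Type I interferon signals through Jak kinases to a complex with Stat2 and Irf9 that binds interferon-stimulated response elements (ISRE) in promoters, and many genes induced by interferon gamma carry gamma-activated sites (GAS). Ifitm proteins sit in the plasma membrane and in endosomes, where Ifitm3 blocks the entry of many enveloped viruses, and Bst2 (tetherin) holds budding virus particles at the cell surface. Ifi27 and Ifi27l2a belong to the small hydrophobic ISG12 family, whose human member IFI27 is a widely used marker of interferon exposure.

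With 1 library per genotype no test could be made, cells are not replicates, and genotype cannot be told apart from animal or library preparation. Intervals are at the 95% level and cover counting error only. Barcodes with at least 500 UMIs (unique molecular identifiers, counted transcripts), at least 200 genes and at most 10% mitochondrial UMIs were kept, which left 650 of 3434 Gata3KO barcodes and 990 of 3290 Wt barcodes. Monocytes and macrophages, a class of 3 clusters, numbered 400 Gata3KO cells with a median of 17049.5 UMIs and 412 Wt cells with a median of 8773. The clusters were cluster 0, led by Gpnmb and Fabp5 (198 Gata3KO and 116 Wt cells), cluster 2, led by the interferon-induced genes Ccl12, Iigp1 and Gbp2 (36 and 237 cells in the same order), and cluster 4, led by Cxcl2 and Gdf15 (166 and 59 cells). In the finer clustering described further on, 136 cells of the class fell in the Clec4b1 and Ccr2 state. Its best marker score was that of conventional dendritic cell 2, and it held 21 Gata3KO and 118 Wt cells. Another 25 fell in the tissue-resident-like Dab2 and Mrc1 state, which held 90 and 37 cells in the same order. The monocyte-like Hp and Vcan state held 19 Gata3KO and 31 Wt cells, of which 30 together fell in the class. Cluster 8, led by Nr4a2 and Ifitm1 (15 Gata3KO and 5 Wt cells), scored best as conventional dendritic cell 2. It was left out of the class. All 9 general macrophage markers had UMIs in the class, between 89.1 and 3861 CPM (UMIs summed over the named cells and scaled to a common total) in Gata3KO and between 56.2 and 4342 CPM in Wt. Gata3 could not check the deletion: the class held 1 Gata3 UMI in each library, every deposited barcode together held 8 in each, and tags from the 3' end can lie outside the floxed part. Cx3cr1, whose gene drives the Cre, stood at 379 CPM in Gata3KO and 271 CPM in Wt (log2 ratio 0.48, interval 0.38 to 0.58). The libraries shared 2 of their deposited barcodes and none of the kept ones.

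The 4 Ifitm members lie together on mouse chromosome 7, Ifi27 and Ifi27l2a lie side by side on chromosome 12, and Bst2 lies on chromosome 8. In mm10 with the GENCODE annotation, Ifi27 (ENSMUSG00000064215) spans 103434211 to 103440239 on the plus strand, and Ifi27l2a (ENSMUSG00000079017) spans 103442167 to 103443680 on the minus strand. Their 3' ends face each other 1928 bases apart, and the RefSeq gene table draws Ifi27l2a across Ifi27 on the opposite strand. The labels do not say whether counting used strand, so reads from an overlap could not be told apart without it. The stretch from the start of Ifitm2 to the end of Ifitm6 on chromosome 7 is 63088 bases long. Of the 91-base words in the last 500 bases of their transcripts, Ifitm2 shared 107 of 410 with the predicted genes Gm11951, Gm45717 and Gm8865, so its counts depend on how such reads were assigned, and the other members shared none with another gene.

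Promoter windows from RefSeq (GRCm38.p6, 250 bases before to 50 bases after the annotated start) were matched for 5 of the 7 members, and 4 are shown because they differ in the motif read by the type I interferon pathway. Ifi27 and Ifi27l2a had no window. Capitals mark an ISRE-like pair, GAAANNGAAA, searched on both strands.
Ifitm3: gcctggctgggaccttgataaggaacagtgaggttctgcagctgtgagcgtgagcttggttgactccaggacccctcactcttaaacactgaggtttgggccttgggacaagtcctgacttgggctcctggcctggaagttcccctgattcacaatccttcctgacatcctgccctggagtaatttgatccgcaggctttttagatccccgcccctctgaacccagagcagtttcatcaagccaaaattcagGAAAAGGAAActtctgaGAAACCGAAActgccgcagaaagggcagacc
Ifitm2: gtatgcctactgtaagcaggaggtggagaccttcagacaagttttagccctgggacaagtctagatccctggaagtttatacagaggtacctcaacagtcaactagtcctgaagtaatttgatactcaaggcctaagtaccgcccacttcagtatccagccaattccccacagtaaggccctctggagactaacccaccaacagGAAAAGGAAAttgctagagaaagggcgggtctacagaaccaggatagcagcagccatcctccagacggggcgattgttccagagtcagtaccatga
Bst2: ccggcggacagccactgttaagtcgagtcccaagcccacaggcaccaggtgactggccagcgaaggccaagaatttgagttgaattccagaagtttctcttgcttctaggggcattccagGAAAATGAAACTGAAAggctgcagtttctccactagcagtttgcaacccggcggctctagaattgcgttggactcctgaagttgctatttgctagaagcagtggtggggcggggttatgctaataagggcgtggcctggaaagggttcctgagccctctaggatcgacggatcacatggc
Ifitm6: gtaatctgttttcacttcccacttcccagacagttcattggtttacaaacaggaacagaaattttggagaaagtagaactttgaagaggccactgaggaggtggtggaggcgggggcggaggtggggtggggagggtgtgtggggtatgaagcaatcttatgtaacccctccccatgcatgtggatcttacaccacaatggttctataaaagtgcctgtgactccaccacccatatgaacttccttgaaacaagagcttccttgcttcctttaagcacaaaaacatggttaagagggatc
All 4 are written 5' to 3' on the minus strand, at chr7:141010695-141010994 for Ifitm3, chr7:140955912-140956211 for Ifitm2, chr8:71537423-71537722 for Bst2 and chr7:141016843-141017142 for Ifitm6. Ifitm3 held 2 ISRE-like pairs just after the start, Ifitm2 held 1 at 46 bases before it, and Bst2 held 2 that overlap each other at 130 and 124 bases before it. Ifitm6 and Ifitm1 held none in these windows. Among all 32851 windows of the table, 1131 (3.44%) held an ISRE-like pair, against 19 of 38 windowed genes of the interferon response list (50%) and 12 of 21 of the interferon gamma list (57.1%). The lists count genes with a pair in any of their windows, so their percentages are not in the same unit as that of all windows. A GAS-like word, TTCNNNGAA, was found in the windows of Ifitm3, Ifitm6 and Bst2, and in 2726 of all windows (8.30%). A match describes letters in a window and not a bound site.

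In monocytes and macrophages Ifi27 was higher in the Gata3KO library, while Ifi27l2a, Ifitm3, Ifitm6 and Bst2 were lower by more than 1.5-fold and Ifitm2 was lower by less. These ratios belong to the contrast that chose the genes. Ifi27 had 746 UMIs (109 CPM) in 400 Gata3KO cells and 133 UMIs (30.2 CPM) in 412 Wt cells, a log2 ratio Gata3KO over Wt of 1.86 (interval 1.59 to 2.13) or 3.62-fold. Within clusters the log2 ratio was 1.33 (0.96 to 1.72) in cluster 0, 1.60 (1.09 to 2.15) in cluster 4 and -0.33 (-2.30 to 1.17) in cluster 2. The mean of the log2 ratios of the 3 clusters, each weighted alike and with 1 CPM added, was 0.86. Cluster 2, with 4 Gata3KO Ifi27 UMIs, weighs as much in that mean as the others. No single cell carried the excess: 250 Gata3KO cells and 73 Wt cells had an Ifi27 UMI, and the most in 1 cell was 14 in Gata3KO and 7 in Wt. Its neighbour and relative Ifi27l2a was the most abundant of the 7, with 7564 UMIs (1107 CPM) in Gata3KO and 16928 UMIs (3839 CPM) in Wt, a log2 ratio of -1.79 (-1.83 to -1.76). The adjacent genes of 1 family thus stood on opposite sides of 0.

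Ifitm3, which acts in endosomes, had 5019 UMIs (734 CPM) in Gata3KO and 11663 UMIs (2645 CPM) in Wt, a log2 ratio of -1.85 (-1.90 to -1.80). Ifitm2, its close relative, differed less, with 2421 UMIs (354 CPM) in Gata3KO and 2131 UMIs (483 CPM) in Wt (log2 ratio -0.45, -0.53 to -0.36). Ifitm6, a mouse member of the family, was scarce, with 47 UMIs (6.88 CPM) in Gata3KO and 208 UMIs (47.2 CPM) in Wt (log2 ratio -2.78, -3.27 to -2.32). The Ifitm6 ratio was -1.46 as the mean over the 3 clusters, each weighted alike, and -1.48 over every deposited barcode, reclustered. Over all kept cells it was -1.79 (-2.06 to -1.54). The Hp and Vcan state, only partly in the class, held 72 Ifitm6 UMIs in Gata3KO and 122 in Wt. Ifitm1, which acts at the plasma membrane, was nearly absent from the class, with 6 UMIs in Gata3KO and 21 in Wt. Of the Wt UMIs, 9 came from 1 cell. Cluster 8, which Nr4a2 and Ifitm1 led, lay outside the class. Over all kept cells Ifitm1 had 183 UMIs in Gata3KO and 186 in Wt, a log2 ratio of -0.24 (-0.54 to 0.06). Bst2 had 2909 UMIs (426 CPM) in Gata3KO and 5660 UMIs (1284 CPM) in Wt, a log2 ratio of -1.59 (-1.66 to -1.53).

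**Figure D1:**
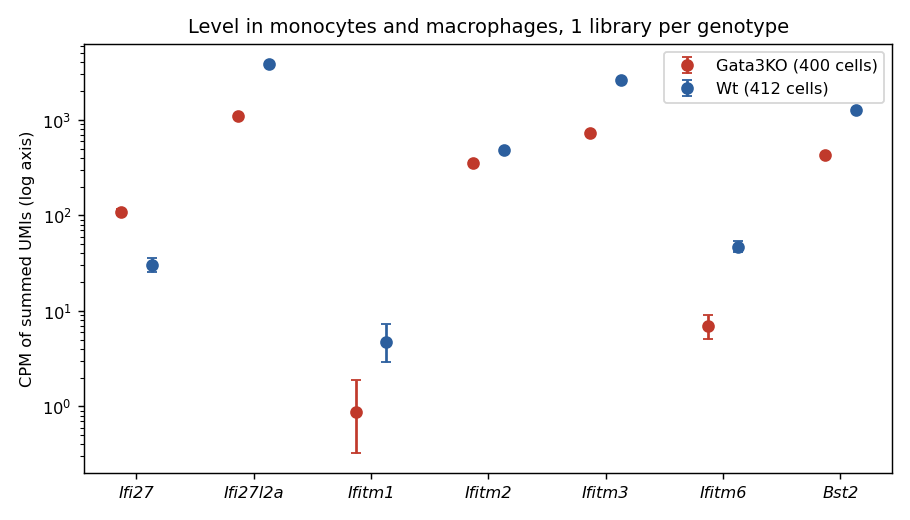
Level of each of the 7 genes in monocytes and macrophages (CPM of summed UMIs, log axis) for the Gata3KO library (red) and the Wt library (blue), with exact Poisson intervals, 1 library per genotype. Ifi27 is the gene whose Gata3KO point lies above its Wt point, at 109 against 30.2 CPM.

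Of the 6 members with at least 20 CPM in 1 library, 4 were lower in Gata3KO by over 1.5-fold, beside 7.62% of all 5893 genes measured that way, and 1 was higher, beside 4.97%. Ifitm1 was under that level. The median log2 ratio of the 6 members other than Ifi27 was -1.71 with 1 CPM added, and the median of all measured genes was 0.04. Since the same contrast chose the genes, nothing is read from these counts.

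Measured genes of the interferon response and interferon gamma lists were lower in the Gata3KO library in the same class, and those of the receptor and transducer list were mixed. The lists were drawn up with earlier results of these data known. Cluster 2, led by interferon-induced genes, held 36 Gata3KO and 237 Wt cells of that class. Of all 5893 measured genes, 7.62% were lower by over 1.5-fold and 4.97% were higher. All 47 measured genes of the interferon response list, out of 50 named and 48 listed in both libraries, were lower by over 1.5-fold, with a median of -1.94 and 1 CPM added. With log2 ratios averaged over the 3 clusters at equal weight, 45 of 47 were lower by that fold. Ifi205, a DNA sensor of the Ifi200 family, stood lowest at -3.31, followed by Ifit2 at -3.23 and Ifit1bl1 at -3.21. Nearest to 0 were the factor gene Irf9 (-0.76), the RNA sensor gene Oas1a (-0.76) and Lgals3bp (-1.01). The interferon gamma list had 23 of 23 measured genes lower by over 1.5-fold, with a median of -1.81. The T cell chemokine gene Cxcl9 (-4.45), Serpina3g (-4.12) and the GTPase gene Iigp1 (-3.90) were lowest there, and the immunoproteasome gene Psmb8 (-0.85), the GTPase gene Irgm2 (-1.26) and the transcription factor gene Irf1 (-1.30) were nearest to 0. Receptors and signal transducers were mixed, with 8 of 20 measured genes lower and 1 higher by over 1.5-fold and a median of -0.40. Irf7 (-2.39) and Stat2 (-2.26), which interferon itself induces, were lowest in that list, the feedback inhibitor gene Socs3 was highest (0.70), and the kinase gene Jak1 came next (0.19). Ifi27 (1.82 on this scale) lay above the highest value measured on these 3 lists. The same contrast chose Ifi27 for running against such genes, so nothing is read from that place.

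**Figure D2:**
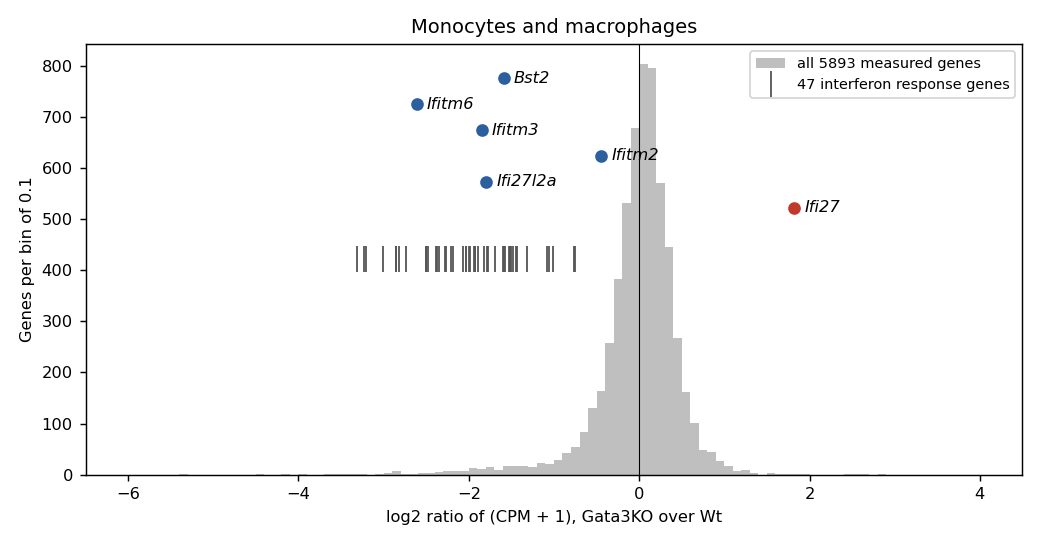
Number of genes per bin of 0.1 in the log2 ratio of CPM + 1, Gata3KO over Wt, for the 5893 genes measured in monocytes and macrophages, with 47 interferon response genes as ticks and the measured members as named points (their height carries no value). Ifi27 at 1.82 lies right of 0, while the interferon response genes lie between -3.31 and -0.76.

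The Ifi27 difference was present at every depth of cell. Among cells of the class with 5000 UMIs or fewer, Ifi27 had 11 UMIs in 49 Gata3KO cells (103 CPM) and 4 UMIs in 94 Wt cells (13.8 CPM). In cells with over 20000 UMIs it had 476 UMIs in 153 Gata3KO cells (117 CPM) and 55 UMIs in 44 Wt cells (43.7 CPM), a log2 ratio of 1.42 (1.01 to 1.85). The 2 strata between gave 1.68 (0.64 to 2.73) and 1.75 (1.33 to 2.19). Ifi27l2a, Ifitm3 and Bst2 were lower in Gata3KO in all 4 strata, with log2 ratios from -1.92 to -0.99. Ifitm2 was lower in all 4 strata too, from -0.78 to -0.24.

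The direction was also the same in barcodes that the mitochondrial limit removed. Mitochondrial UMIs made up a median of 21.8% in Gata3KO barcodes and 15.7% in Wt barcodes. Over every deposited barcode Ifi27 had 1462 UMIs (75.3 CPM) in Gata3KO and 413 UMIs (26.8 CPM) in Wt, a log2 ratio of 1.49 (1.33 to 1.65). Split by mitochondrial share, the Ifi27 ratio was 1.57 (1.32 to 1.82) up to 5%, 1.75 (1.42 to 2.10) from 5 to 10%, 1.63 (1.25 to 2.02) from 10 to 20% and 1.04 (0.63 to 1.46) from 20 to 40%. Above 40% it was 0.94 with an interval that included 0 (-0.02 to 1.98). Ifi27l2a ranged from -1.88 to -1.34, Ifitm3 from -2.50 to -1.43 and Bst2 from -2.35 to -1.45 over these 5 ranges, each with an interval below 0. Among all barcodes outside the cell filter, 3 members were lower by over 1.5-fold (Ifi27l2a, Ifitm3 and Bst2), beside 8.52% of the 5832 genes measured there, and Ifi27 alone was higher (1.29, 1.03 to 1.56), beside 6.45%.

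**Figure D3:**
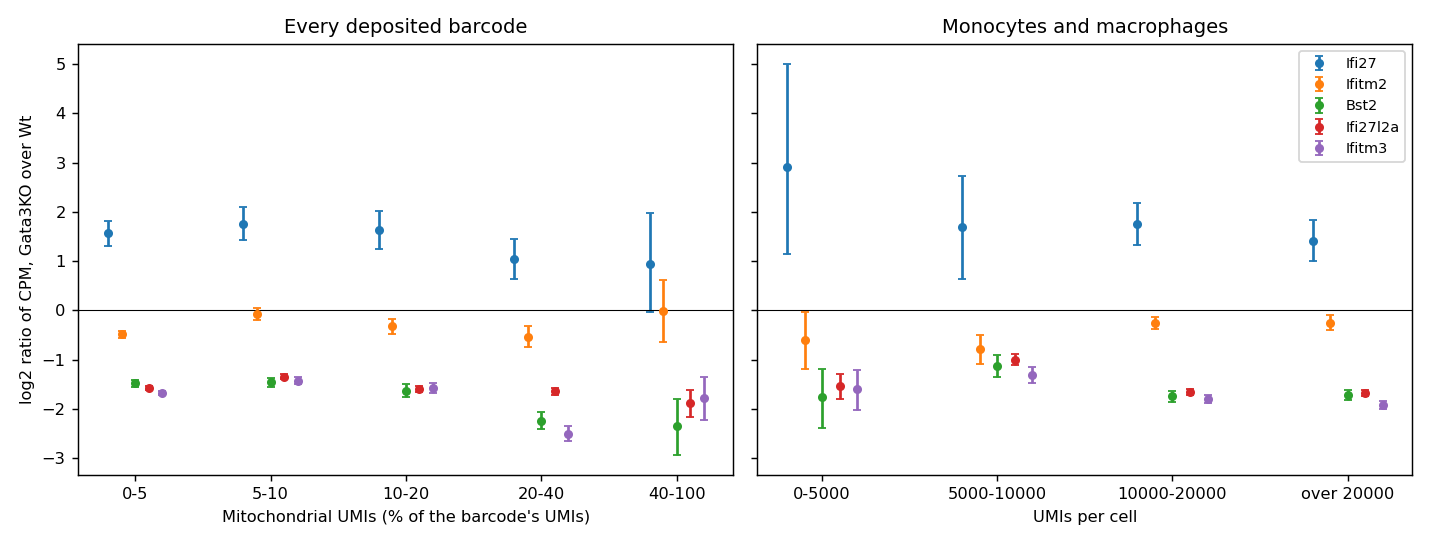
Log2 ratio of CPM, Gata3KO over Wt, with exact conditional binomial intervals, for 5 of the genes by mitochondrial share over every deposited barcode (left) and by UMIs per cell in monocytes and macrophages (right). Ifi27 lies above 0 in all 9 groups, with an interval that reaches -0.02 in the group over 40%, and Ifi27l2a, Ifitm3 and Bst2 lie below 0 in all 9.

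The share of cells with a UMI gave the same order as the levels. Each cell was thinned to 2000 UMIs, which left out 28 Gata3KO and 26 Wt cells of the class. Ifi27 was then found in 66 of 372 Gata3KO cells (17.7%, exact interval 14 to 22.0%) and in 17 of 386 Wt cells (4.40%, 2.59 to 6.96%), and unthinned in 62.5% and 17.7% of cells in the same order. Ifi27l2a was found in 70.4% of Gata3KO cells and 95.1% of Wt cells. Ifitm3 stood at 56.7% in Gata3KO and 88.9% in Wt, and Bst2 at 54.8% and 86.0%. For Ifitm2 the shares were 46.5% in Gata3KO (41.3 to 51.7%) and 56.0% in Wt (50.8 to 61.0%), whose intervals overlap. Free RNA in droplets also gives UMIs, and no state here is known to lack Ifi27. In the Cd209a state, where Ifi27 was low, it was found in 2 of 26 thinned Gata3KO cells (7.69%) and 2 of 100 thinned Wt cells (2%), with unthinned medians of 10823.5 and 8529.5 UMIs. The Wt share of 4.40% in the class lies within the interval of that Wt value (0.243 to 7.04%) and is not read as expression. The Gata3KO share of 17.7% lies within the wider interval of its own Cd209a value (0.946 to 25.1%), so the shares alone do not show Ifi27 above background there.

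**Figure D4:**
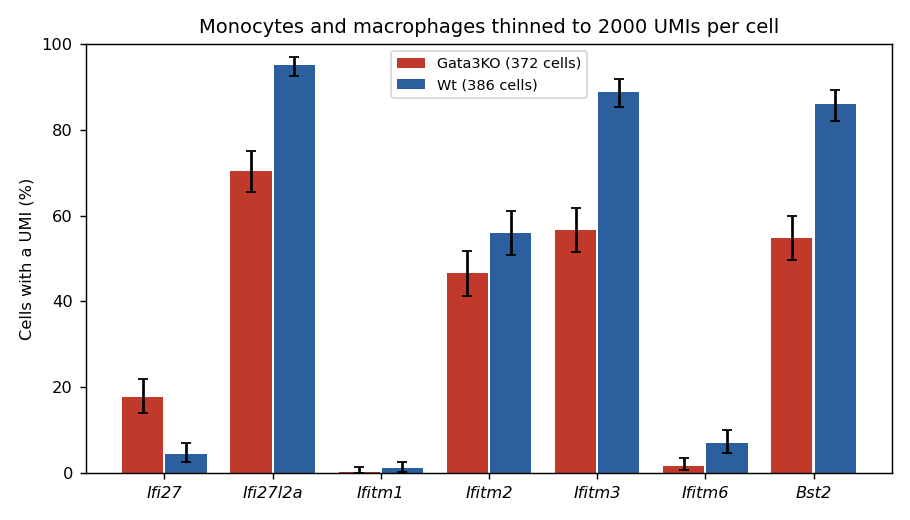
Share of monocytes and macrophages with at least 1 UMI of each gene after thinning to 2000 UMIs per cell, with exact binomial intervals, for 372 Gata3KO cells (red) and 386 Wt cells (blue). Ifi27 is found in 17.7% of Gata3KO and 4.40% of Wt cells, and Ifi27l2a, Ifitm3 and Bst2 are each found in a smaller share of Gata3KO cells.

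Finer clustering split the kept cells into 14 states, and the 7 genes were high in different ones. Of these, 9 held at least 20 cells of each library and allow a ratio. These states are clusters built on variable genes that included members, so a member's level across them is a description. In Gata3KO the highest Ifi27 levels ran from 123 CPM in the state led by Cxcl2, Gdf15 and Arg1 (interval 110 to 136), through 117 CPM in the Atp6v0d2 and Mmp12 state (100 to 135) and 101 CPM in a mixed collagen-rich and cycling state (77.6 to 129), to 98.9 CPM in the Npl and Lpcat2 state (85.4 to 114) and 87.0 CPM in the tissue-resident-like Dab2 and Mrc1 state (71.5 to 105). Neighbours in that order overlapped in their intervals. In Wt the same 5 states held 41.7, 49.3, 59.4, 41.7 and 20.8 CPM, and the Wt order began with the muscle-transcript state at 61.5 CPM (14 UMIs in 31 cells).

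In all 5 of those states the Ifi27 ratio had an interval above 0. They were picked by their high Gata3KO level, so these ratios draw on the values behind the choice. It was widest apart in the Dab2 and Mrc1 state, with 111 UMIs in 90 Gata3KO cells and 11 in 37 Wt cells (log2 ratio 2.06, 1.17 to 3.11). The Cxcl2 state had 357 UMIs in 158 Gata3KO cells and 27 in 38 Wt cells (1.56, 0.99 to 2.18). Its shares of cells with an Ifi27 UMI were 73.4% in Gata3KO and 31.6% in Wt unthinned, 20.8% of 154 Gata3KO cells and 18.9% of 37 Wt cells (7.96 to 35.2% in Wt) at 2000 UMIs, and 10.3% and 2.63% in the same order at 1000 UMIs. The Npl state (1.25, 0.80 to 1.71), the Mmp12 state (1.24, 0.52 to 2.05) and the collagen-rich state (0.77, 0.22 to 1.32) followed. In the other 4 states with a ratio, the Cd209a state, the Clec4b1 and Ccr2 state and 2 unnamed states low in UMIs, the interval included 0. In that order they held 7, 3, 4 and 3 Ifi27 UMIs in Gata3KO and 11, 8, 10 and 3 in Wt. With so few UMIs the intervals do not show that a difference is absent.

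The interferon state, led by Ccl12, Iigp1 and Cxcl9 and general macrophage-like, held 12 Gata3KO cells and 118 Wt cells, too few in Gata3KO for a ratio. Ifi27 had 1 UMI there in Gata3KO (7.58 CPM, 0.19 to 42.2) and 25 in Wt (21.5 CPM, 13.9 to 31.8). The Gata3KO interval overlaps those of other states low in Ifi27, so its place among them cannot be read. Ifi27l2a had 690 UMIs in Gata3KO (5228 CPM, the highest of its Gata3KO states) and 5602 in Wt (4823 CPM, the third of its Wt states). Cluster 2 of the coarser clustering, also led by Ccl12 and Iigp1, held 36 Gata3KO and 237 Wt cells. It was broader than the interferon state, and most of its Gata3KO cells belonged to other states. The class took in 136 cells of the Clec4b1 and Ccr2 state and 123 of the interferon state. In cluster 2 the Ifi27 levels were 12.5 CPM in Gata3KO and 15.7 CPM in Wt (log2 ratio -0.33, -2.30 to 1.17). Those of Ifi27l2a were 4558 and 4911 CPM in the same order (-0.11, -0.19 to -0.03). Ifitm3 was level there (-0.04, -0.14 to 0.05), while Bst2 was lower in Gata3KO (-1.03, -1.24 to -0.83) and Ifitm2 higher (0.76, 0.58 to 0.94).

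**Figure D5:**
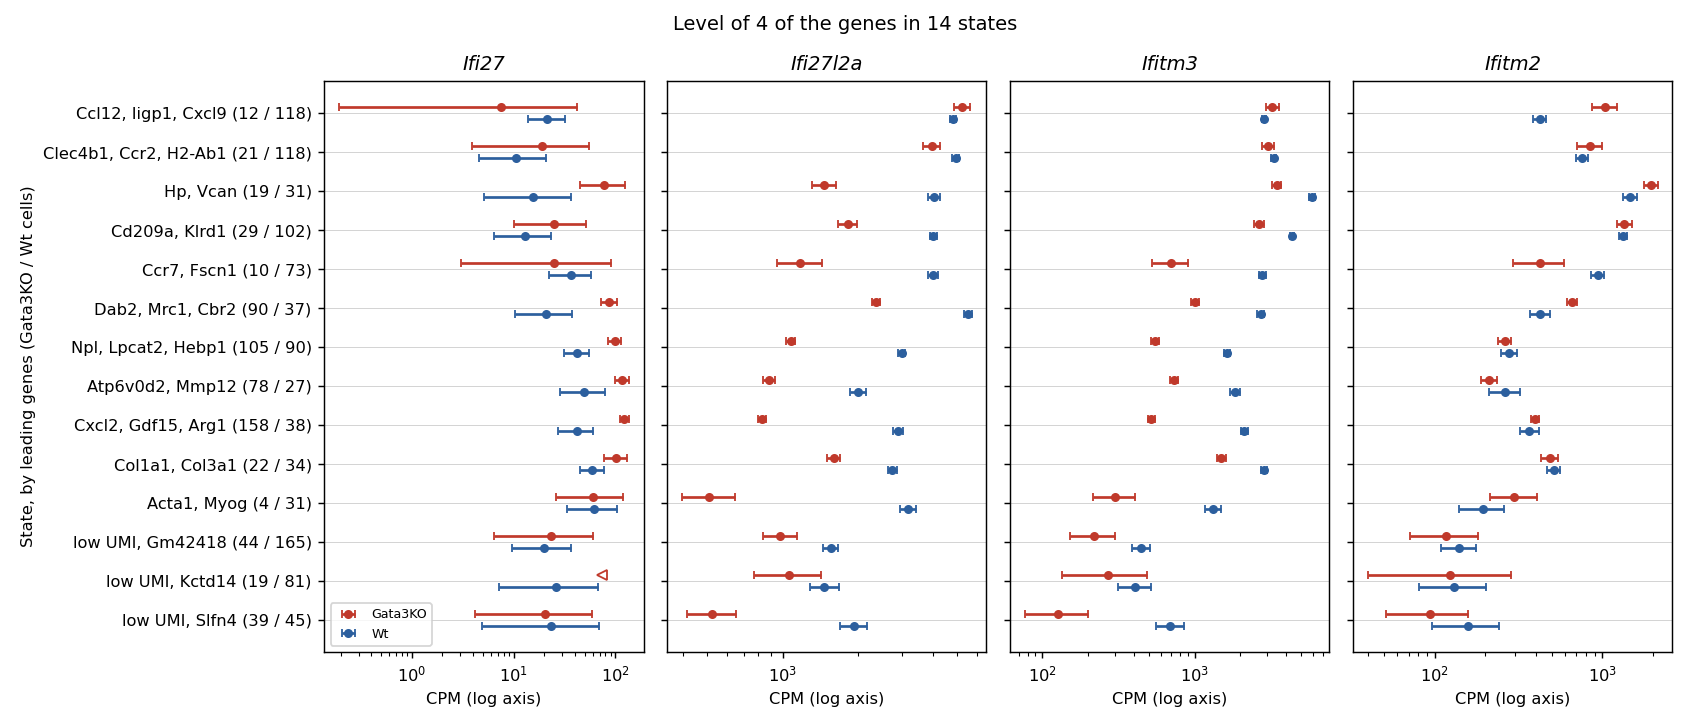
CPM (log axis) of Ifi27, Ifi27l2a, Ifitm3 and Ifitm2 in 14 states named by leading genes, with exact Poisson intervals, Gata3KO in red above Wt in blue; an open triangle is the level that 3 counts would give in a state with 0 UMIs. In Gata3KO the Ifi27 points of the Cxcl2, Mmp12, collagen-rich and Npl states lie between 98.9 and 123 CPM, and Ifi27l2a has its highest point in the Ccl12 state.

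Bst2 and Ifi27l2a were lower in Gata3KO in all 9 states with a ratio, each with an interval below 0. Bst2 ranged from -2.45 in an unnamed state low in UMIs to -0.73 in another. In the Dab2 and Mrc1 state Bst2 stood at 389 CPM in Gata3KO and 1484 CPM in Wt (-1.93, -2.10 to -1.77). Ifi27l2a ranged from -1.88 to -0.33 and was nearest to level in the Clec4b1 and Ccr2 state, with 3951 CPM in Gata3KO and 4950 CPM in Wt. Ifitm3 was lower in 8 of 9 states, and in the Clec4b1 and Ccr2 state it stood at 3021 CPM in Gata3KO and 3313 CPM in Wt, with an interval that included 0 (-0.13, -0.28 to 0.01). Its largest gap among named states was in the Cxcl2 state, at 519 CPM in Gata3KO and 2116 CPM in Wt (-2.03, -2.13 to -1.92).

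Within states and clusters the Ifitm2 and Ifitm6 ratios varied. Ifitm2 was lower in Gata3KO in cluster 0 (-0.24, -0.41 to -0.07) and in cluster 4 (-0.51, -0.66 to -0.36), and higher in cluster 2 (0.76). For Ifitm2, 8 of the 9 states had an interval that included 0 and none lay below 0. The exception was the Dab2 and Mrc1 state, where Ifitm2 was higher in Gata3KO, with 844 UMIs in 90 Gata3KO cells (661 CPM) and 225 UMIs in 37 Wt cells (426 CPM; 0.63, 0.42 to 0.85). The states with the highest Ifitm2 were the monocyte-like Hp and Vcan state (1957 CPM in Gata3KO and 1468 CPM in Wt), and the dendritic Cd209a state (1358 and 1335 CPM in the same order). Averaged over the 3 clusters with equal weight, the Ifitm2 log2 ratio was 0.00, and that of the whole class was -0.45. Ifitm6, which is among the genes that lead the Hp state, stood there at 329 CPM in Gata3KO (72 UMIs in 19 cells) and 382 CPM in Wt (122 UMIs in 31 cells). The ratio was -0.33 (-0.77 to 0.09) in the Cd209a state and -0.24 (-1.31 to 0.70) in the Clec4b1 and Ccr2 state. In the Cxcl2 state Ifitm6 had 8 UMIs in 158 Gata3KO cells (2.75 CPM) and 23 UMIs in 38 Wt cells (35.6 CPM), a log2 ratio of -3.69 (-5.06 to -2.48). Ifitm6 was found in 10 of 18 thinned Gata3KO cells and 15 of 29 thinned Wt cells of the Hp state, against 0 of 4 Gata3KO and 1 of 30 Wt cells of the muscle-transcript state, with median unthinned depths of 11789 and 10256 UMIs in the Hp state and 20941 and 5984 in the muscle state.

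Ifitm1 was highest in the Cd209a and Hp states, where single cells held much of it. In the Cd209a state, conventional dendritic cell 2-like, it had 105 UMIs in 29 Gata3KO cells (372 CPM) and 83 UMIs in 102 Wt cells (97.7 CPM; 1.93, 1.5 to 2.36). Of the Gata3KO UMIs, 73 came from 1 cell with 12912 UMIs. Without that cell Ifitm1 stood at 119 CPM in Gata3KO and 97.7 CPM in Wt, and the interval included 0 (0.28, -0.35 to 0.89). The Hp state had 61 UMIs in 19 Gata3KO cells (279 CPM) and 35 UMIs in 31 Wt cells (110 CPM), with no ratio because Gata3KO had fewer than 20 cells. Of these UMIs, 25 in Gata3KO and 28 in Wt came from 1 cell each. Only 8 Gata3KO and 5 Wt cells of the Hp state held an Ifitm1 UMI. In the mature dendritic cell-like Ccr7 and Fscn1 state no Ifitm1 UMI was counted in 10 Gata3KO cells, which allows up to 37.5 CPM (3 counts), and 36 UMIs were counted in 73 Wt cells (70.0 CPM).

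Profiles were compared across the 27 combinations of library and state with at least 10 cells. These points mix the 2 libraries whose contrast chose the genes, so the r values are a description. Pearson's r of log2(CPM + 1) was -0.20 between Ifi27 and Ifi27l2a, 0.84 between Ifi27l2a and Ifitm3, 0.83 between Ifi27l2a and Bst2, and 0.85 between Ifitm2 and Ifitm3. These points share libraries, states and depth. The r between Ifi27 and the log2 median UMIs per cell was 0.62, against 0.15 for Ifi27l2a. Over single cells of the class within 1 library, r between Ifi27 and Ifi27l2a was -0.20 in Gata3KO and -0.12 in Wt. Between Ifi27l2a and Ifitm3 it was 0.54 and 0.18 in the same order, and between Ifi27l2a and Bst2 0.22 and 0.19. For Ifitm2 and Ifitm3 it was 0.34 and 0.50. Over the 27 combinations, the genes with profiles most like Ifi27 were Dynlt3 (r = 0.85), Morf4l2 (0.84), Gclm (0.82), Cetn3 (0.82) and Anapc15 (0.81). None of them is on the interferon lists. Gclm, a subunit of the enzyme that begins glutathione synthesis, stood at 121 CPM in Gata3KO and 32.7 CPM in Wt in monocytes and macrophages. The genes most like Ifi27l2a were Rtp4 (0.86), Zbp1 (0.84), Psmb10 (0.84), Ifitm3 (0.84) and Tmem219 (0.83), of which the chaperone gene Rtp4 and the nucleic acid sensor gene Zbp1 are on the interferon response list.

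Marker sums differed between the libraries within the class. Among its own cell types, the 12 monocyte markers summed to 1487 CPM in Gata3KO and 2242 CPM in Wt. The 12 lipid-handling macrophage markers summed to 56539 CPM in Gata3KO and 41828 CPM in Wt. The 10 listed tissue-resident macrophage markers summed to 2131 and 1403 CPM, and the 9 general macrophage markers to 12643 and 13302 CPM, in the same order. Among other cell types, 7 markers of conventional dendritic cell 2 summed to 185 CPM in Gata3KO and 408 CPM in Wt, 9 muscle genes to 59.6 and 172 CPM, 4 listed B cell markers to 73.6 and 156 CPM, and 4 listed T or NK cell markers to 1.02 and 9.53 CPM in the same order. Their part in the member ratios was not tested. The 7 endothelial markers summed to 27.2 CPM in each library, and the 6 neutrophil markers that were listed summed to 105 CPM in Gata3KO, with S100a9 at 0, and 99.6 CPM in Wt. Of the family relatives named for the comparison, Ifitm5 and Ifitm10 were listed in both tables, at 35 and 14 UMIs over all Gata3KO barcodes and 19 and 11 UMIs over all Wt barcodes.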

How the data were processed

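The deposited files hold the authors' UMI counts per gene and cell barcode, whole numbers that were not normalized, 1 table per library. The submitters' processing notes name the build mm10 and the tools R 3.6.1, Seurat 3.0.2 and Cell Ranger 3.0.1. Settings, and whether cells were filtered before deposit, are not stated there. Per the labels' protocols, each library was made with 10x 3' v3 chemistry from 8000 loaded cells. The tables hold 19422237 UMIs in Gata3KO and 15392330 in Wt.

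Counts of the 13289 shared genes were scaled to 10000 per cell, logged and clustered jointly on 2000 variable genes and 30 principal components with a graph of 15 neighbours (scanpy 1.11.5, scikit-learn 1.9.0, leidenalg 0.10.2, igraph 0.11.9), at Leiden resolution 0.6 for the class (9 clusters) and 1.2 for the states. A cluster took the marker list with the highest mean z-score, and a score under 0.15 left it unnamed. A monocyte or macrophage name was also dropped where the leading genes held more markers of another type. By hand, the state low in UMIs led by Gm42418 (best score 0.16, skeletal muscle) was also called unnamed. The state that scored best as cycling was called mixed by hand, as collagen genes led it. Scrublet called 4 Gata3KO and 1 Wt cells doublets (0.615% and 0.101%), which were left in. Levels are CPM of summed UMIs with exact Poisson intervals, ratios have exact conditional binomial intervals and shares Clopper-Pearson intervals (Python 3.11.15, pandas 2.3.3, numpy 2.4.6, scipy 1.17.1, matplotlib 3.10.9). Genes were counted as measured at 20 CPM or more in 1 library, and 3 counts served as the floor. The steps were tested on simulated data.

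The members and lists were chosen with earlier results of these data known. Named genes are the members, Gata3, Cx3cr1, the 3 lowest and 3 highest of the interferon response and interferon gamma lists, the 2 lowest and 2 highest receptors or transducers, the 5 genes most like Ifi27 and Ifi27l2a by Pearson's r, the listed relatives and genes leading a cluster. Alternatives were other cell filters, resolutions, scalings and weightings, cells thinned, and log2 ratios averaged over the 3 clusters with equal weight. Those added after seeing the data were barcodes outside the filter, each library without its 10 deepest cells, and the Cd209a state without 1 cell. The strata of UMIs and of mitochondrial share were likewise chosen with results known.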

Additional observations from a re-analysis of the deposited data

Results flagged for a closer look

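In 2 cases a difference within a state ran against the same gene's difference in monocytes and macrophages, with counting intervals only, and whether state and class differ was not tested. Both states lay mostly outside that class, which took in 2 cells of the Cd209a state and 25 of the Dab2 and Mrc1 state. Ifitm1 had a log2 ratio Gata3KO over Wt of 1.93 in the Cd209a state, against -2.44 (-4.04 to -1.08) in monocytes and macrophages. The class value rests on 6 Gata3KO and 21 Wt UMIs. The ratio in the state was 0.28 without the 1 cell that held 73 of the Ifitm1 UMIs. Ifitm2 had 0.63 in the Dab2 and Mrc1 state, against -0.45 in monocytes and macrophages.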

How the results depend on the processing

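Ifi27 was higher in Gata3KO under all 15 alternatives tried, with log2 ratios from 0.86 to 2.13 against 1.86 as reported. The ratio was 1.41 with a stricter filter of 1000 UMIs and 5% mitochondrial UMIs and 1.5 at Leiden resolution 0.3. It was 1.29 in barcodes outside the cell filter and 0.86 as the mean over the 3 clusters, each weighted alike. The median of the other 6 members was negative under all 17 alternatives tried. It moved most to -1.33 over every deposited barcode, reclustered, and to -1.32 with log2 ratios averaged over the 3 clusters. Ifi27 was found in 9.69% of Gata3KO and 2.23% of Wt cells thinned to 1000 UMIs, and in 62.5% and 17.7% of unthinned cells in the same order. Between 3 and 5 members were lower by over 1.5-fold, and so were 43 to 48 interferon response genes of 44 to 48 measured, or 32 of 32 at 100 CPM or more. Of all measured genes, 7.62% were lower by that fold in the class as reported and 8.52% outside the cell filter. The same contrast chose the members, so nothing is read from their counts. Ifi27l2a (-1.85 to -1.17), Ifitm3 (-2.04 to -1.27), Ifitm6 (-3.07 to -1.46) and Bst2 (-2 to -1.37) kept their sign under all 15. Ifitm1 did so too (-2.99 to -0.19), but its class value rests on 6 Gata3KO and 21 Wt UMIs. Over all kept cells, with 183 Gata3KO and 186 Wt UMIs, its ratio was -0.24 and the interval included 0 (-0.54 to 0.06). Ifitm2 turned positive under 3 of 15, by up to 0.17. No paired analysis was possible because each genotype has 1 library. The causes of these shifts were not tested.

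The values rest on 1 library per genotype, so no spread between animals is known. Kept cells are 18.9% of Gata3KO and 30.1% of Wt barcodes. Ifitm1 and Ifitm6 rest on few UMIs in most states, and ratios in states with fewer than 20 cells of a library were not formed.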
